A study of Homo sapiens with 8 samples.

Results

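Glutathione transferases are enzymes that join the tripeptide glutathione to electrophilic compounds such as drugs, carcinogens and products of lipid peroxidation, or use it to reduce peroxides. Here 10 of them were followed in HepG2, a widely used human cell line derived from a liver carcinoma. They were the soluble alpha-class enzymes GSTA1, GSTA2 and GSTA4, GSTP1 of the pi class, GSTO1 of the omega class, GSTM4 of the mu class, the mitochondrial and peroxisomal GSTK1, and the membrane-bound MGST1, MGST2 and MGST3. They were picked by gene symbol, 10 of the 58735 genes in the table, with earlier results of the same comparison in view. Their differences between the groups are therefore given as a description, with no p-value, and the number that met the call rule is printed once without being read as a result.

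The study measured poly(A) RNA in 8 libraries. The 4 control libraries are named pLV_EGFP_NC and their genotype is labelled WT. The 4 DNMT3A libraries are named pLV_EGFP_DN and came from HepG2 made to overexpress DNMT3A with a lentivirus. DNMT3A is a de novo DNA methyltransferase, which adds methyl groups to cytosine. The treatment text describes only the overexpressing line and does not spell out what the control cells received. Nor do the labels say whether either line was a pool or 1 clone, or whether replicates were cultured or infected separately, so p-values measure only how these libraries vary, which could be technical variation. Levels are FPKM, fragments per kilobase of gene, scaled to library size. Each difference is the mean log2(FPKM + 1) of the DNMT3A libraries minus that of the controls, which understates those of low genes.

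The alpha class is the main group of transferases in the hepatocyte, where GSTA1 is one of the abundant soluble proteins. The class also acts as a steroid isomerase and binds bilirubin and bile acids, and GSTA4 prefers the lipid aldehyde 4-hydroxynonenal. GSTP1 is low in hepatocytes, and methylation of the CpG island at its promoter is a well-known mark of prostate and liver cancers. The microsomal enzymes belong to the MAPEG family of small membrane proteins, which also makes leukotrienes and prostaglandins.

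Upstream sequences are shown for the 3 alpha genes because they lie in 1 cluster but differed in their values. Each is the stretch of the RefSeq promoter window (GRCh38.p14) before every GENCODE release 29 transcript of the gene, 156 bases read 5′ to 3′ on the minus strand. CpG, the substrate of DNMT3A, is in capitals. Coordinates are chr6:52803911-52804066 for GSTA1, chr6:52763570-52763725 for GSTA2 and chr6:52995379-52995534 for GSTA4.
GSTA1: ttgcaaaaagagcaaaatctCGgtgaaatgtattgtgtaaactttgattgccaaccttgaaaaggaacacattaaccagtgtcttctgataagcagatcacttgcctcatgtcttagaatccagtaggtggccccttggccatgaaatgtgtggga
GSTA2: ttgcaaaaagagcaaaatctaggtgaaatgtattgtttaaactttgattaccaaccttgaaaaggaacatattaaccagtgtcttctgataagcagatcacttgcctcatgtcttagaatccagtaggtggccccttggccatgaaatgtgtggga
GSTA4: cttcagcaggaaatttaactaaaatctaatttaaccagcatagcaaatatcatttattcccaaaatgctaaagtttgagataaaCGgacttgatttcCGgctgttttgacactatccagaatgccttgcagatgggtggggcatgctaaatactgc

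GSTA1 and GSTA2 were identical at 152 of these 156 bases (97.4%). The stretch held 1 CpG in GSTA1, 0 in GSTA2 and 2 in GSTA4. In the full RefSeq window of 300 bases, which runs on past the start, the counts were 4 for GSTA1, 1 for GSTA2, 14 for GSTA4 and 36 for GSTP1. The median over 35116 promoter windows was 14. Of the other members with a window, GSTK1 held 17, GSTO1 19, GSTM4 21 and MGST3 22, and the 3 windows of MGST1 held 4, 18 and 19. In all, 9 of 10 members matched a RefSeq window. GSTA1 and GSTA2 thus had few CpGs among the members, as did 1 of the MGST1 windows. DNA methylation was not measured in these files.

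The core of the antioxidant response element, through which NRF2 acts, was searched as TGACNNNGC on both strands. It was found in 13.3% of all promoter windows. Among the members it occurred 1 time in GSTA4, 1 time in GSTP1, 2 times in GSTO1 and 1 time in 1 of the 3 windows of MGST1. It was not among the letters of the other members' windows. The HNF1 palindrome, searched as a full match, was in 10 of all windows (0.0285%) and in no member's window. So rare a match could hardly be met in these few windows, and partial forms were not searched. Its absence therefore says nothing on whether these promoters hold an HNF1 site.

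DNMT3A, the gene introduced, was at 3.62, 3.89, 3.45 and 3.64 FPKM in control libraries 1 to 4 and at 9.75, 10.2, 8.51 and 7.26 FPKM in DNMT3A libraries 1 to 4. The log2 difference was 1.09 (limma adjusted p = 0.000122), and a two-sided exact permutation of the libraries gave p = 0.0286, the lowest possible with 70 assignments. Depth was 15911019 to 17677093 reads per library, recovered from FPKM and gene length. All 10 markers of hepatocytes and HepG2 were above a mean of 1 FPKM. Their summed level was 10680 to 11240 FPKM in the controls against 9838 to 12740 FPKM in the DNMT3A libraries. That sum is mostly albumin, and single markers moved within it. AFP was at 358 to 380 FPKM in the controls and at 867 to 1275 FPKM in the DNMT3A libraries, FGB at 32.5 to 36.1 and 94.0 to 115 FPKM, and TTR at 5.14 to 7.85 and 15.8 to 18.7 FPKM, all higher without overlap. APOH was lower without overlap, at 1479 to 1532 and 1066 to 1427 FPKM. Of the 4 leukocyte markers PTPRC and CD3E were at 0 throughout, and the list's sum was 1.11 to 1.60 FPKM in the controls against 0.638 to 0.695 FPKM in the DNMT3A libraries, nearly all of it CD14. The 4 endothelial markers summed to 0.435 to 0.547 and 0.565 to 0.679 FPKM, with KDR at 0. The fibroblast list, with LUM at 0, had 1 of 5 markers above 1 FPKM and summed to 8.18 to 10.1 and 6.20 to 10.5 FPKM. The cholangiocyte list, with CFTR at 0, had 2 of 4 above 1 FPKM and summed to 117.8 to 136 and 123.5 to 145.8 FPKM. Of these SOX9 was higher without overlap, at 58.4 to 65.4 and 71.1 to 81.4 FPKM. The part of these lists in the results below was not tested.

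In the control cells GSTA1 was the highest of the 10 genes by deposited FPKM. Its 4 values were 276 to 377 FPKM, none overlapping those of GSTO1 at 79.6 to 89.7 FPKM, the second in order. GSTA2 at 45.3 to 57.9 FPKM and MGST1 at 42.6 to 50.6 FPKM overlapped and could not be ordered. Below them came MGST2 at 19.3 to 23.4 FPKM, GSTA4 at 12.6 to 14.5 FPKM and GSTK1 at 10.3 to 11.9 FPKM, each apart from the next. GSTM4 at 4.09 to 4.63 FPKM and MGST3 at 2.17 to 2.58 FPKM were the lowest of those with reads, and also stood apart. The plot of levels by gene shows the same order.

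**Figure D1:**
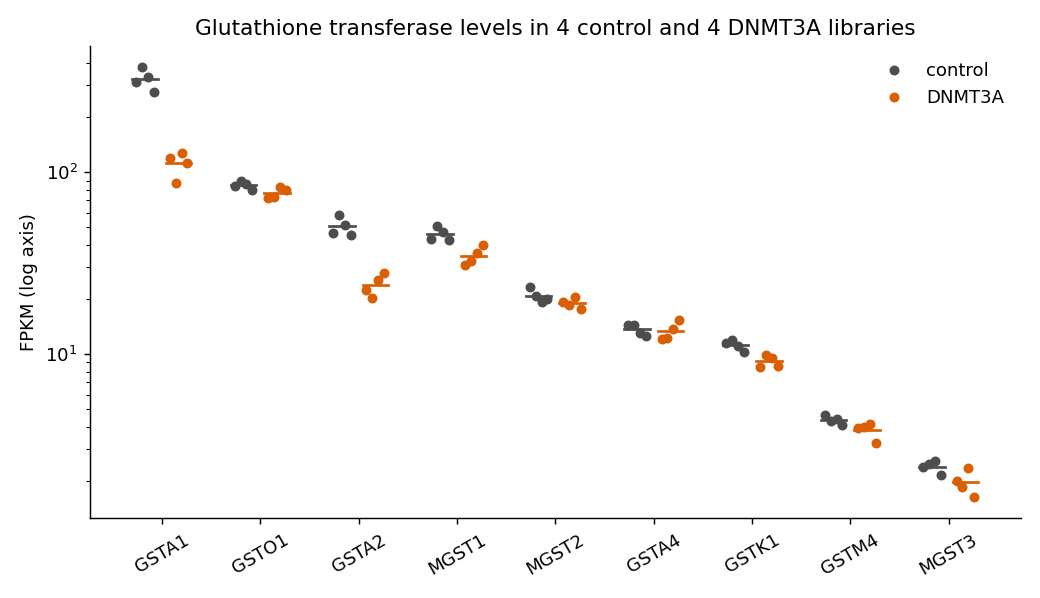
FPKM of 9 members on a log axis in the 4 control (grey) and 4 DNMT3A (orange) libraries, 1 point per library and a line at each group mean. GSTP1, at 0 FPKM in all 8, is not drawn. GSTA1 and GSTA2 have the widest gap between the groups.

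This order depends on the gene length used. The deposited values divide by the union of all annotated exons, which equalled the GENCODE release 29 union for all 58735 genes. For MGST3 that union is 8401 bases, 8.28 times its principal transcript of 1015 bases, and for MGST1 it is 7440 bases, 7.60 times its principal transcript of 979 bases. For GSTA1 and GSTA2 the union and the principal transcript are the same length (1019 and 1313 bases). When the recovered reads were divided by the principal length instead, a choice made after the data were seen, MGST1 had 323 to 385 in the controls on the FPKM scale. That overlapped GSTA1 at 276 to 377, so the first 2 could no longer be ordered. GSTO1 followed at 138 to 156, and MGST2 (48.1 to 58.3), GSTA2 (45.3 to 57.9) and GSTK1 (41.8 to 48.2) overlapped their neighbours in order. GSTA4 (20.6 to 23.7) overlapped MGST3 (18.0 to 21.3), which overlapped GSTM4 (16.7 to 18.9). Reads that lie outside the principal transcript are included in these values, so they are upper values for that transcript. Differences between the groups within a gene do not depend on this length, apart from the effect of the pseudocount.

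**Figure D2:**
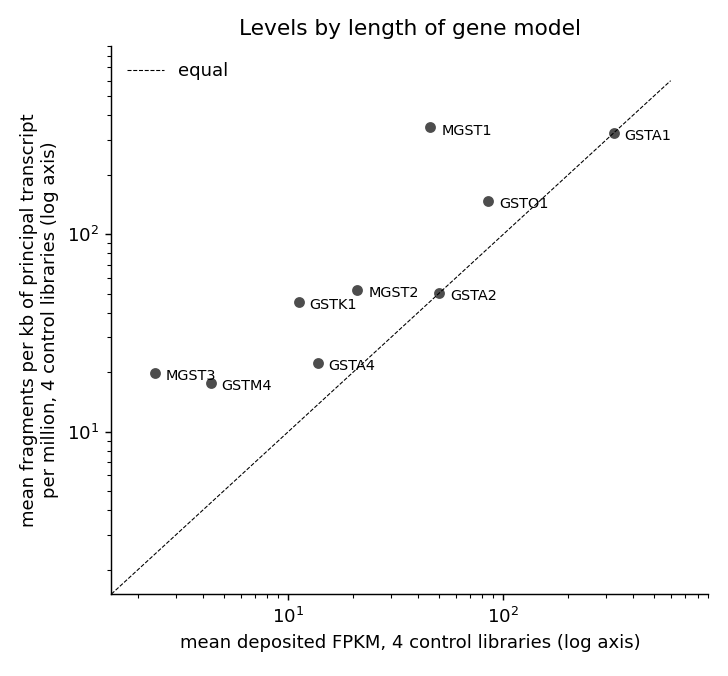
Mean level of 9 members in the 4 control libraries, as deposited FPKM (horizontal) and as fragments per kilobase of the principal transcript, scaled to library size as FPKM is (vertical), both on log axes with a dashed line of equality. MGST1 and MGST3 lie farthest above the line, and GSTA1 and GSTA2 lie on it.

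GSTA1 was lower in all 4 DNMT3A libraries than in any control. It was at 315, 377, 334 and 276 FPKM in control libraries 1 to 4 (4956 to 6608 reads) and at 120, 87.4, 128 and 113 FPKM in DNMT3A libraries 1 to 4 (1631 to 2266 reads). Control library 2 was the highest and DNMT3A library 2 the lowest, and the groups did not overlap. The means were 326 ± 41.8 and 112 ± 17.5 FPKM (SD, n = 4 each), a difference of -65.6% and -1.54 on the log2 scale. The gene lies on chromosome 6, 52791664 to 52803910, minus strand (hg38, ENSG00000243955), and its principal transcript has 7 exons. In bulk RNA, fewer cells that express a gene and less RNA per cell cannot be told apart.

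GSTA2, the next gene of the cluster (chromosome 6, 52750089 to 52763569, minus strand, ENSG00000244067), showed the same direction. Its control values were 46.5, 57.9, 51.6 and 45.3 FPKM (972 to 1308 reads) and its DNMT3A values 22.4, 20.3, 25.5 and 28.0 FPKM (488 to 646 reads). Again control library 2 was the highest and DNMT3A library 2 the lowest, with no overlap. The means were 50.3 ± 5.72 and 24.1 ± 3.39 FPKM (SD, n = 4 each), a difference of -52.2% and -1.04 on the log2 scale.

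The 2 genes make near-identical transcripts, so part of their reads could be assigned to either. Over 1019 aligned bases the principal transcripts were identical at 972 (95.4%). Of the stretches of 100 bases in the GSTA1 transcript 12.0% also occur in full in GSTA2, and 6.90% of those of 150 bases. GSTA4 shares no stretch of 50 bases with another gene. The reads of GSTA1 and GSTA2 added together numbered 6004 to 7916 in the controls and 2119 to 2849 in the DNMT3A libraries. From these summed reads the pair's log2 difference was -1.45, so the pair was lower however its reads are split. The ratio of GSTA1 to GSTA2 reads was 4.73 to 5.26 in the controls and 3.13 to 4.15 in the DNMT3A libraries, without overlap. GSTA1 thus made up a smaller part of the pair in the DNMT3A libraries, as far as the split of reads can be relied on.

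GSTA4 lies in the same cluster (chromosome 6, 52977948 to 52995378, minus strand, ENSG00000170899) and did not share the difference. It was at 14.5, 14.5, 13.1 and 12.6 FPKM in the controls and at 12.1, 12.2, 13.8 and 15.5 FPKM in the DNMT3A libraries. The groups overlapped, and DNMT3A library 4 was the highest of all 8. The means were 13.7 ± 0.973 and 13.4 ± 1.59 FPKM (SD, n = 4 each), a log2 difference of -0.03, with 450 to 593 reads per library.

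Most neighbours of the cluster did not pass the test. Of the 7 other tested genes within 250 kb of the 3 alpha genes, 1 fell and 0 rose, with 6 not past the test, against 10.6% of all tested genes that fell and 9.93% that rose. TMEM14A, a small membrane protein gene on the GSTA2 side, fell from 53.7, 59.5, 59.4 and 55.3 FPKM in the controls to 41.0, 38.0, 44.4 and 47.1 FPKM (log2 -0.41, limma adjusted p = 0.00478). ICK (log2 -0.08), FBXO9 (log2 -0.01), TRAM2 (log2 0.16), the pseudogene AL109918.1 (log2 0.07) and TRAM2-AS1 (log2 -0.05) did not pass it. The pseudogene GSTA7P, between TMEM14A and GSTA2, had a mean of 1.48 ± 1.11 FPKM in the controls against 0.952 ± 0.460 FPKM in the DNMT3A libraries and did not pass either. GSTA3 and GSTA5, which lie between GSTA1 and GSTA4, had 4 and 0 reads in all controls together and 0 and 0 in the DNMT3A libraries. The plot of the alpha cluster shows the differences by position.

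**Figure D3:**
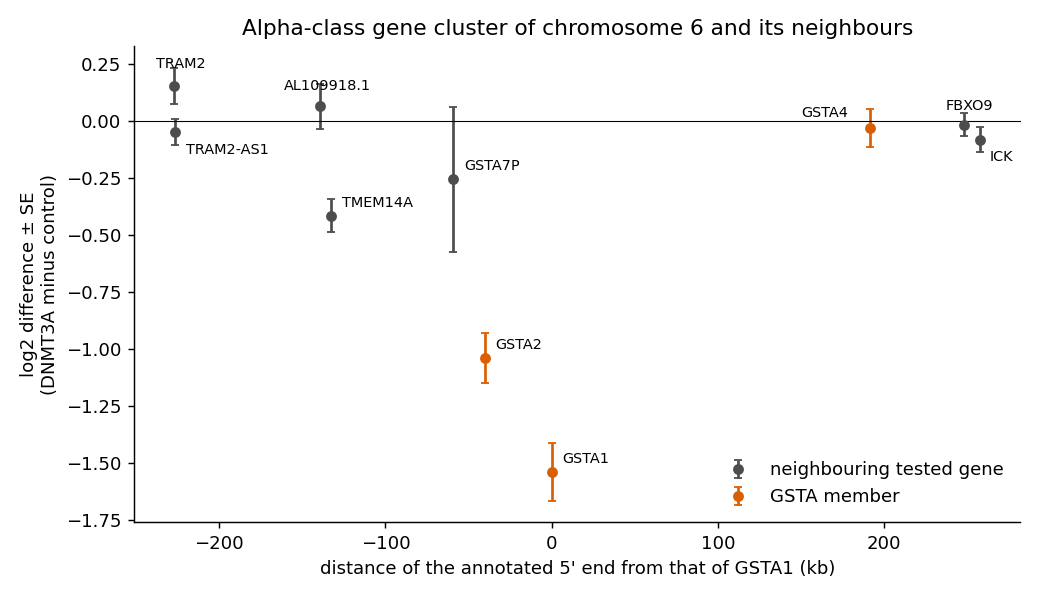
Log2 difference (DNMT3A minus control, ± SE from the limma fit) of the 3 alpha-class members (orange) and of 7 neighbouring tested genes (grey), by distance of their annotated 5′ end from that of GSTA1 in kb. GSTA1 at -1.54 and GSTA2 at -1.04 are the lowest points, while GSTA4 is at -0.03. The members were chosen with this comparison in view, so their bars are a description and not a test.

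GSTP1 had 0 reads in each of the 8 libraries (chromosome 11, 67583595 to 67586656, plus strand, ENSG00000084207). A count of 0 allows up to 3 reads, which for this gene is 0.0857 to 0.0992 FPKM depending on the library. No difference could therefore be measured, and none above that level was detectable at this depth. No stretch of 50 bases in its principal transcript occurs in another gene, so reads of that transcript were not shared with a copy. The neighbourhood was transcribed: 11 other genes within 250 kb were tested, of which 2 fell and 0 rose. Over all tested genes 10.6% fell and 9.93% rose, so nothing is read from so small a count. NUDT8, a nudix hydrolase gene, fell from 9.59 to 11.7 FPKM in the controls to 5.94 to 6.47 FPKM in the DNMT3A libraries (log2 -0.68, limma adjusted p = 0.000431). CDK2AP2 had a log2 difference of -0.28 (limma adjusted p = 0.0409), a call that ended without any 1 of 7 libraries (0.0514 to 0.106).

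GSTO1, which reduces dehydroascorbate and methylated arsenic, was slightly lower on average with overlapping groups (chromosome 10, 104235356 to 104267459, ENSG00000148834). It was at 83.9, 89.7, 86.4 and 79.6 FPKM in the controls and at 71.8, 73.2, 82.6 and 79.9 FPKM in the DNMT3A libraries. DNMT3A libraries 1 and 2 lay below every control, and libraries 3 and 4 lay among them. The means were 84.9 ± 4.26 and 76.9 ± 5.21 FPKM (log2 -0.14).

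GSTK1 was lower in every DNMT3A library (chromosome 7, 143244093 to 143270854, ENSG00000197448). Its values were 11.5, 11.9, 11.0 and 10.3 FPKM in the controls and 8.47, 9.92, 9.57 and 8.63 FPKM in the DNMT3A libraries. The gap was narrow, from 9.92 FPKM in DNMT3A library 2 to 10.3 FPKM in control library 4. The means were 11.2 ± 0.680 and 9.15 ± 0.706 FPKM, a difference of -18.3% (log2 -0.27). GSTM4 overlapped between the groups, with 4.09 to 4.63 FPKM for controls and 3.25 to 4.12 FPKM for DNMT3A libraries (log2 -0.15; chromosome 1, 109656081 to 109674836, ENSG00000168765). Of the stretches of 100 bases in its transcript 4.49% also occur in GSTM1, GSTM2, GSTM5 or a pseudogene, and its interval overlaps that of GSTM2 on the same strand. GSTM2 itself was at 0.119 to 0.268 FPKM.

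MGST1, the trimeric membrane enzyme that conjugates and also reduces lipid hydroperoxides, was lower in all 4 DNMT3A libraries (chromosome 12, 16347142 to 16609259, ENSG00000008394). It was at 42.8, 50.6, 47.0 and 42.6 FPKM in the controls (5069 to 6485 reads) and at 30.9, 32.4, 36.0 and 39.7 FPKM in the DNMT3A libraries (4015 to 5196 reads). DNMT3A library 4 came closest to the controls and library 1 was the lowest. The means were 45.8 ± 3.86 and 34.7 ± 3.93 FPKM, a difference of -24.1% (log2 -0.39). In reads MGST1 and GSTA1 were close to each other in the controls, but in every DNMT3A library MGST1 had more reads than GSTA1.

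MGST2, which can make leukotriene C4, overlapped between the groups. It was at 23.4, 21.0, 19.3 and 20.1 FPKM in the controls and at 19.4, 18.7, 20.6 and 17.7 FPKM in the DNMT3A libraries (log2 -0.13). Control library 1 was the highest (chromosome 4, 139665768 to 139740745, ENSG00000085871). The pseudogene H3F3AP6, at 6.63 to 12.3 FPKM, lies within its interval on the other strand, and the strand setting of the counting is not given in the sources used here. MGST3 (chromosome 1, 165630861 to 165661796, ENSG00000143198) was at 2.17 to 2.58 FPKM in the controls and at 1.64 to 2.38 FPKM in the DNMT3A libraries, again with overlap (log2 -0.20).

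Over the 10 genes, 9 passed the filter of a mean of at least 1 FPKM, and all 9 had a lower mean in the DNMT3A libraries. Groups did not overlap for GSTA1, GSTA2, GSTK1 and MGST1, 4 of 9, where 13% of the 11620 tested genes had groups that did not overlap in that direction and 25.1% in either. In the limma fit over all tested genes the same 4 of 9 were called lower and 0 higher, where 10.6% of tested genes were called lower and 9.93% higher. Over all 10 loci 42 neighbours within 250 kb were tested, of which 4 fell and 2 rose. Besides TMEM14A, NUDT8 and CDK2AP2, EPHA1 near GSTK1 fell (log2 -0.32, limma adjusted p = 0.00722), while CSF1 near GSTM4 (log2 0.68, limma adjusted p = 0.00254) and ITPRIP near GSTO1 (log2 0.59, limma adjusted p = 0.0019) rose. Since the 10 transferases were chosen with this comparison in view, nothing is read from their shares. The median log2 difference of all tested genes was -0.01. The plot of deviations by library shows that GSTA1 and GSTA2 differed by more than the rest.

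**Figure D4:**
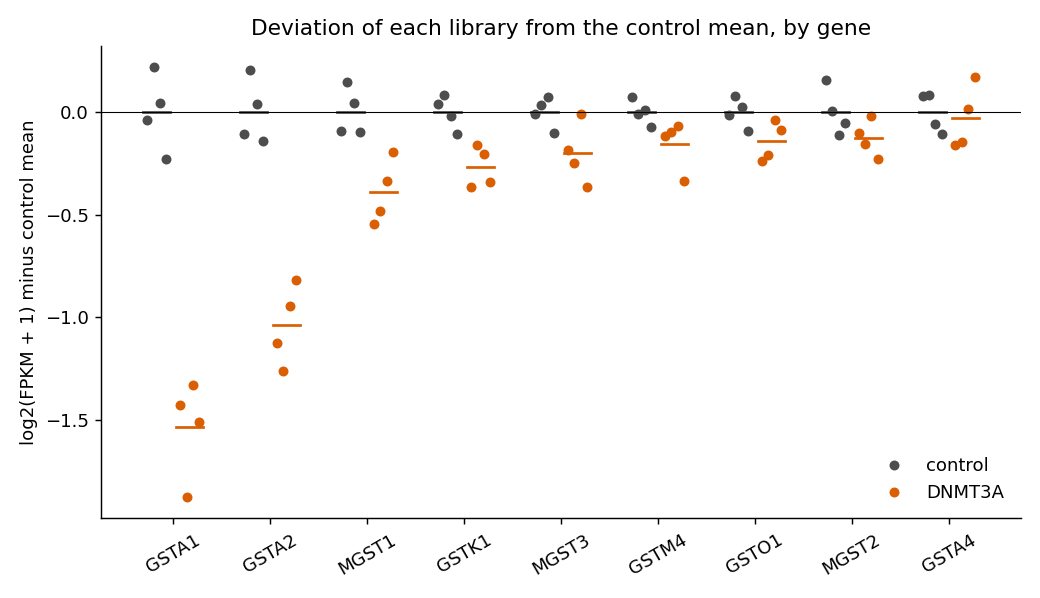
Log2(FPKM + 1) of each library minus the control mean of the gene, for the 4 control (grey) and 4 DNMT3A (orange) libraries, with a line at each group mean. Genes are ordered by difference, from GSTA1 at -1.54 to GSTA4 at -0.03.

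The makeup of the family changed with these values. Summed over the 10 genes, deposited FPKM was 493 to 629 in the controls and 260 to 323 in the DNMT3A libraries, without overlap. GSTA1 made up 56.0% to 59.9% of that sum in the controls and 33.6% to 41.2% in the DNMT3A libraries, while GSTO1 made up 14.3% to 16.1% and 24.7% to 28.1%. A share in such a sum rises when another gene is lower, and GSTO1's own level was not higher. These shares rest on the union lengths. By principal length, a choice made after the data were seen, GSTA1 made up 29.7% to 33.1% of the sum in the controls and 14.1% to 18.8% in the DNMT3A libraries, and MGST1 was the largest part, at 32.5% to 34.7% and 36.9% to 42.4%. By deposited FPKM GSTA2 and MGST1 overlapped in the controls, while in the DNMT3A libraries MGST1 (30.9 to 39.7 FPKM) was above GSTA2 (20.3 to 28.0 FPKM) throughout. By principal length MGST1 was above GSTA2 in both groups, so this order depends on the length used.

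Libraries within a group did not move together for all members. In the controls, library 2 was the highest for GSTA1, GSTA2, GSTA4, GSTO1, GSTK1 and MGST1, but not for MGST2, MGST3 or GSTM4. Among the DNMT3A libraries, library 2 had the highest DNMT3A (10.2 FPKM) and the lowest GSTA1 and GSTA2. Library 4 had the lowest DNMT3A (7.26 FPKM) and the highest GSTA2, GSTA4 and MGST1, but the lowest GSTM4, MGST2 and MGST3. No relation between these levels was tested.

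The genes whose log2(FPKM + 1) followed GSTA1 most closely over the 8 libraries were not transferases. They were the adhesion molecule EPCAM (Pearson 0.993), the fatty acid oxidation enzyme ECHS1 (0.993), TNFAIP8L3 (0.992), the lysosomal cholesterol carrier NPC2 (0.991) and EPC1 (0.989). ECHS1 was at 107 to 125 FPKM in the controls and at 63.3 to 70.1 FPKM in the DNMT3A libraries, and EPCAM at 91.4 to 102 and 70.0 to 75.5 FPKM. The 5 genes were chosen for following GSTA1, so their own differences between the groups are set by that choice and are given with no test. GSTA2 was close behind them, at rank 11 among the tested genes with a Pearson value of 0.983, while GSTA4 had one of 0.235. The points share the difference between the 2 groups, so these values are a description of it. Taken as deviations from each group's mean, the values were 0.876 for EPCAM and 0.762 for GSTA2. The other tested members lay between 0.022 for GSTK1 and 0.697 for GSTO1. EPCAM was picked on the same 8 libraries, so the choice can raise its value here too.

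Most of the other transferases and related genes were under 1 FPKM, and those tested did not pass the test. Of 16 listed genes 15 were in the table and 2 passed the filter, of which 0 had an unadjusted p under 0.05. GSTT1 was not analysed here. GSTM3 (4.66 to 5.63 FPKM in the controls, 4.94 to 6.08 FPKM in the DNMT3A libraries, log2 0.09, limma adjusted p = 0.421) and GSTCD (5.14 to 6.35 and 5.34 to 6.64 FPKM, log2 0.03, limma adjusted p = 0.792) overlapped between the groups. GSTZ1, which isomerises maleylacetoacetate in tyrosine breakdown, had 84 to 146 reads per library and GSTO2 had 68 to 95, but their long gene models of 8477 and 9921 bases put both under 1 FPKM. GSTM2 had 19 to 43 reads per library, GSTT2B had 8 to 15 and PTGES had 3 to 15. The mu-class GSTM1 had 0 to 4 reads per library, GSTT2 had 0 to 3 and GSTA3 had 0 to 3. GSTM5, GSTA5 and the prostaglandin D synthase HPGDS had 0 in all 8. Leukotriene C4 synthase (LTC4S) had 34 reads in all controls and 13 in all DNMT3A libraries, with groups that did not overlap. Tested without the filter its limma adjusted p was 0.118 (unadjusted p = 0.0114). ALOX5AP had 12 and 5 reads.

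Genes of glutathione synthesis and breakdown included 10 that fell and 0 that rose among 18 tested in the limma fit (2 with a higher mean had an unadjusted p under 0.05), with 8 not past the test and a median log2 of -0.22. These counts stand beside 10.6% and 9.93% over all tested genes. This list and those below were, like the members, chosen with earlier results of these data known, so no enrichment is read from their counts. SLC3A2, the heavy chain that carries the cystine transporter to the membrane, fell from 64.2, 69.1, 63.9 and 59.8 FPKM to 41.3, 45.9, 41.2 and 42.2 FPKM (log2 -0.58, limma adjusted p = 0.000382). Its partner, the cystine transporter SLC7A11, fell from 9.39 to 13.3 FPKM to 4.22 to 6.03 FPKM (log2 -1.04, limma adjusted p = 0.000581). CTH, which makes cysteine from cystathionine, fell by 0.74 on the log2 scale (limma adjusted p = 0.00261). The modifier subunit of glutamate-cysteine ligase, GCLM, which with GCLC was named after its value was seen, fell from 16.7 ± 1.26 to 13.1 ± 1.27 FPKM (n = 4; log2 -0.33, limma adjusted p = 0.0153). The catalytic subunit GCLC had a log2 difference of -0.20 (limma adjusted p = 0.0347), a call that ended without any 1 of the 8 libraries (0.0503 to 0.0874).

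On the breakdown side, DPEP1, a dipeptidase that cleaves cysteinylglycine, fell from 13.2, 9.17, 11.1 and 10.9 FPKM to 5.61, 6.41, 5.65 and 5.28 FPKM (log2 -0.84, limma adjusted p = 0.000673). The aminopeptidase ANPEP (log2 -0.17) and LAP3 (log2 -0.06) did not pass the test. From the rest of the list, further genes are named here after their values were seen. Glutathione synthetase GSS (log2 0.01, limma adjusted p = 0.935) and GGT1 (log2 0.32, limma adjusted p = 0.111) did not pass. The falls not given above were SLC1A4 (log2 -0.31), SLC1A5 (log2 -0.37), CHAC2 (log2 -0.38, groups overlapping) and CNDP2 (log2 -0.24). The genes of this list that fell thus took part in uptake and synthesis as well as in breakdown.

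Among 16 tested genes that reduce glutathione or use it outside conjugation, 5 fell and 1 rose, leaving 10 that did not pass (median log2 -0.15), beside 10.6% that fell and 9.93% that rose over all tested genes. IDH1, a source of NADPH, fell from 201 to 218 FPKM to 154 to 174 FPKM (log2 -0.30, limma adjusted p = 0.008). GPX4, the peroxidase of membrane lipid hydroperoxides, fell from 167 to 198 FPKM to 143 to 158 FPKM (log2 -0.30, limma adjusted p = 0.0125). Glutathione reductase GSR, named after its value was seen, fell by 0.22 on the log2 scale (limma adjusted p = 0.016), a call that ended with quantile normalization (log2 -0.13, limma adjusted p = 0.0614). ESD fell too (log2 -0.28, limma adjusted p = 0.0236), and its call ended without control library 2 or 3 or DNMT3A library 1 (0.0581 to 0.0694). GPX3, named after its value was seen, was the last of the 5 (log2 -0.25, limma adjusted p = 0.0301). Its call ended without control library 1 or 2 or DNMT3A library 3 (0.0535 to 0.0775). With quantile normalization the calls of ESD and GPX3 also ended (limma adjusted p = 0.0817 and 0.0675). HAGH, the second glyoxalase, was the 1 that rose (log2 0.33, limma adjusted p = 0.0221), and its call ended when control library 2, 3 or 4, or DNMT3A library 3, was left out (0.0532 to 0.0644). GPX2 (log2 -0.10) and the first glyoxalase GLO1 (log2 0.06), at 237 and 96.6 FPKM in the DNMT3A libraries, did not pass. The count of falls was 3 without control library 2.

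A list of conjugate export and processing held 12 tested genes, not all of them known for acting on glutathione conjugates. Of these 3 fell and 1 rose, with 8 not past the test (median log2 -0.05), beside the same 10.6% and 9.93% over all tested genes. ABCC6 fell from 12.4, 12.7, 14.7 and 14.1 FPKM to 9.29, 9.98, 9.48 and 10.3 FPKM (log2 -0.43, limma adjusted p = 0.00254). The basolateral pump ABCC3 fell from 5.91 to 6.61 FPKM to 4.56 to 5.44 FPKM (log2 -0.32, limma adjusted p = 0.00792). ABCC4 (log2 -0.25, limma adjusted p = 0.0318) was the third, and its call ended without any 1 of 6 libraries (0.054 to 0.089). The canalicular conjugate pump ABCC2 (log2 -0.03) and ABCC1 (log2 0.02) were among those that did not pass. ABCG2 was the 1 that rose (log2 0.27, limma adjusted p = 0.0191), a call that ended without control library 2 or 3 or DNMT3A library 1 (0.0503 to 0.0546).

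NRF2 is the transcription factor best known to switch on transferase and glutathione genes, with KEAP1 as its inhibitor and small MAF proteins as its partners on DNA. In a list of 30 of its regulators and targets that leaves out glutathione genes, 29 were tested, of which 10 fell and 5 rose, with 14 not past the test (median log2 -0.11). Over all tested genes 10.6% fell and 9.93% rose. All 3 small MAF genes rose. MAFF went from 1.81 ± 0.245 to 3.34 ± 0.295 FPKM (n = 4; log2 0.63, limma adjusted p = 0.00134). The log2 rise was 0.52 for MAFK (limma adjusted p = 0.0079) and 0.51 for MAFG, named after its value was seen (limma adjusted p = 0.000659). ABHD4, a lipid hydrolase, rose from 6.87 to 7.81 FPKM to 13.7 to 15.1 FPKM (log2 0.82, limma adjusted p = 4.83e-05). TRIM16L, named after its value was seen, was the fifth (log2 0.29, limma adjusted p = 0.0462), a call that ended without any 1 of 7 libraries (0.0617 to 0.118). The aldose reductase family member AKR1B10 fell from 92.2 to 114 FPKM to 60.7 to 75.4 FPKM (log2 -0.66, limma adjusted p = 0.00107). The quinone reductase NQO1, named after its value was seen, fell from 214 ± 11.4 to 177 ± 6.99 FPKM (n = 4; log2 -0.27, limma adjusted p = 0.0114). NFE2L2, which encodes NRF2 and was also named after its value was seen, was at 40.7 ± 2.91 and 42.8 ± 5.44 FPKM (n = 4; log2 0.07, limma adjusted p = 0.65). KEAP1, also named after its value was seen, was among the falls (log2 -0.24, limma adjusted p = 0.0447), and its call ended in 13 alternative runs. FTH1 (log2 -0.62, limma adjusted p = 0.0648) and PRDX1 (log2 -0.09, limma adjusted p = 0.278) did not pass, though FTH1 did in 5 alternative runs. PRDX1 was lower without overlap between the groups. The other falls of this list are not named here. The count of falls was 5 without control library 2 or DNMT3A library 1 and 6 without control library 3.

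Of 17 tested liver and xenobiotic transcription factors, several of which are described as regulators of GSTA1, 1 fell and 3 rose, and 13 did not pass (median log2 0.03), where 10.6% of all tested genes fell and 9.93% rose. CEBPA, a liver-enriched factor, was the 1 that fell, from 50.5, 46.0, 45.6 and 38.9 FPKM to 25.2, 28.8, 21.0 and 17.4 FPKM (log2 -0.96, limma adjusted p = 0.00199). NR0B2 rose from 29.6 to 38.2 FPKM to 52.5 to 59.8 FPKM (log2 0.65, limma adjusted p = 0.000971). FOXA3 (log2 0.38, limma adjusted p = 0.0182) and the dioxin receptor AHR (log2 0.34, limma adjusted p = 0.0248) were the other two. The call of FOXA3 ended without control library 3 (0.0543), and that of AHR when any of control libraries 1, 2 and 4 or DNMT3A libraries 1 and 3 was left out (0.053 to 0.0632). HNF4A (log2 0.18) and CEBPB (log2 -0.18) did not pass; HNF4A did without DNMT3A library 4 (limma adjusted p = 0.0149). The count of falls was 2 without control library 4 or DNMT3A library 3.

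**Figure D5:**
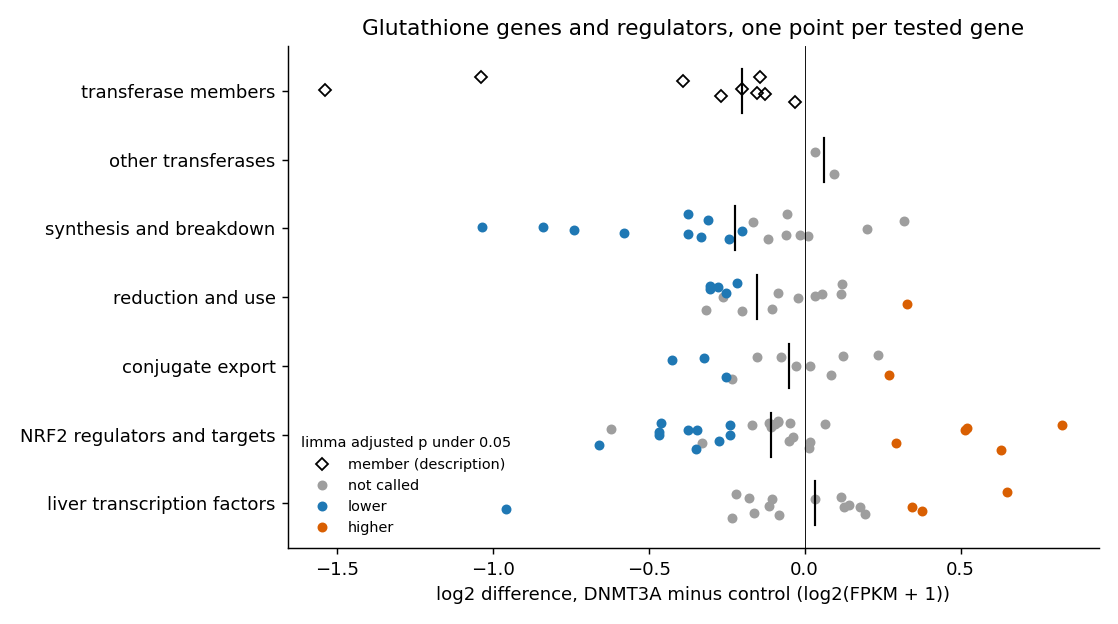
Log2 difference (DNMT3A minus control) of each tested gene in 7 lists, coloured by limma call at an adjusted p of 0.05, with a line at the list median. Open diamonds are the 9 transferases that passed the filter, shown as a description.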

How the data were processed

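Poly(A) RNA of 8 HepG2 libraries was measured, 4 per group, with groups and replicate numbers taken from the sample titles. Per the submitters' processing notes, HISAT2 2.0.5 and the hg38 build were used; how reads were counted, and with what strand setting, is not stated in the labels. Per the file headers, the table gives FPKM computed by the authors in 1 column per library, beside each gene's length in bases. Multiplying FPKM by it gave whole reads for 100% of values (tolerance 0.01 of a read), and these sum to 15911019 to 17677093 per library. No 2 libraries were duplicates: chi-square per degree of freedom was at least 4.26.

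The 10 members, the gene lists and the rules were chosen with earlier results of these data known. Genes with a mean of at least 1 FPKM (11620) were compared as log2(FPKM + 1) with limma 3.58.1 in R 4.3.3 (intensity trend, Benjamini-Hochberg over all tested genes, threshold 0.05), and the script was tested on simulated data. A planned rule allowed names for all members, all other transferases, up to 4 called and 2 uncalled genes of each list, up to 2 called neighbours within 250 kb of each member, and the 5 genes most correlated with GSTA1. Other names are marked. Alternatives were quantile normalization, median-ratio scaling, a pseudocount of 0.1, array weights, no filter, a replicate block, a fit without the trend, voom on recovered reads, a protein-coding library total, summed GSTA1 and GSTA2 reads and leaving out each library. Levels and shares by principal transcript length were added after the data were seen. The pseudocount and FPKM scale limit low genes. Promoter sequences are from RefSeq and transcripts from GENCODE release 29.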

Additional observations from a re-analysis of the deposited data

Results flagged for a closer look

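The members and the genes named by the planned rule were screened in 105 groups of 4 libraries, over both conditions. In these, 4 values stood apart from the other 3 by more than Dixon's limit for a group of 4. Chance flags about 1 in 20 groups. IDH1 was at 154 FPKM in DNMT3A library 2, with the next at 172 FPKM. ABHD4 was at 6.87 FPKM in control library 2, next 7.68 FPKM, and at 15.1 FPKM in DNMT3A library 2, next 13.8 FPKM. NR0B2 was at 59.8 FPKM in DNMT3A library 3, next 53.2 FPKM. No value of the 10 transferases was among them. Other genes, such as those named after their values were seen, were not screened, and some of these also had a value apart. MAFG was at 9.47 FPKM in control library 1, next 10.7 FPKM. TRIM16L was at 0.998 FPKM in DNMT3A library 4, next 1.34 FPKM, and KEAP1 at 19.1 FPKM in DNMT3A library 2, next 16.5 FPKM.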

How the results depend on the processing

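The log2 differences of the 9 transferases stayed within 1 SD of the values given above under every alternative run, except that of GSTA2, which was -1.45 (-1.446) from the summed reads of GSTA1 and GSTA2. That of GSTA1 ranged from -1.61 to -1.42 and that of MGST1 from -0.45 to -0.33, while that of GSTA4, near 0, ranged from -0.10 to 0.01. Of all genes, without a filter 786 were lower, and with array weights 1825 were higher and 1931 lower. Leaving out 1 library gave 769 to 1195 higher and 739 to 1248 lower, with 768 lower without control library 2, and 769 higher and 739 lower without control library 3. Without a filter the genes of glutathione reduction and use had 0 higher and 3 lower, the NRF2 list 4 lower and the transcription factors 1 higher. The synthesis list had 1 higher with median-ratio scaling, quantile normalization or voom. With quantile normalization 2 genes of reduction and use and 6 of the NRF2 list were lower. With array weights the synthesis list had 2 higher, conjugate export 2 higher, reduction and use 8 lower and the transcription factors 2 lower. Without 1 library the ranges were 0 to 1 higher for synthesis, for reduction and use and for export, 3 to 7 lower for reduction and use, 5 to 12 lower for the NRF2 list and 1 to 2 lower for the transcription factors. The cause of these moves was not tested. With the replicate number as a block, reduction and use had 0 higher and the transcription factors 2 lower. In that fit the calls of HAGH, ABCC4, GPX3, TRIM16L, AHR, GCLC and KEAP1 ended (adjusted p 0.0513 to 0.0952). Without a filter these calls also ended, as did those of ESD, FOXA3 and CDK2AP2 (adjusted p 0.0558 to 0.116). Deviations of same-numbered libraries correlated at 0.159, -0.0816, -0.0248 and 0.0978 for numbers 1 to 4. The best value with a differently numbered library was 0.202, 0.115, 0.142 and 0.012. Only number 4 was thus closest to its own number, and these few values cannot settle whether the numbers pair the libraries. Genes of a few reads per library, such as GSTM1 and GSTA3, are limited by depth.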
